A study of Homo sapiens with 9 samples.

Results

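The genes described here are 9 genes of glutamine use and of the stress response run by the transcription factor ATF4: ATF4, ASNS, CHAC1, TRIB3, DDIT3, SLC1A5, SLC7A5, GLS2 and GLUL. They were taken by gene symbol from a table of 25084 genes, and each of the 9 had a row. Glutamine enters cells through amino acid carriers such as SLC1A5, is turned into glutamate by glutaminases such as GLS2, and is remade from glutamate and ammonia by glutamine synthetase, the product of GLUL. When amino acids run short or proteins misfold in the endoplasmic reticulum (ER), kinases phosphorylate the initiation factor eIF2, and ATF4 is then made mainly through better translation of its messenger RNA. ATF4 raises genes that supply amino acids, such as ASNS and SLC7A5, and genes of prolonged stress, such as DDIT3, TRIB3 and CHAC1. MYC proteins are known for raising glutamine uptake and breakdown, which is why neuroblastoma with extra MYCN copies is a common setting for work on glutamine.

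RNA was sequenced from LAN5, an established human neuroblastoma line with many extra copies of MYCN, in 9 libraries of 3 each. The groups had received by nucleofection (electroporation) siRNA of 1 of 3 kinds: a control (siCTR), siMYCN_2 to lower MYCN, or siHAND2_3 to lower HAND2, and RNA was taken after 72 h. All 3 groups grew in RPMI-1640 with fetal calf serum, antibiotics and L-glutamine, so no group was placed in medium without glutamine. The glutamine left in the medium or cells at 72 h is not part of these data. Each target was lowered with a single named siRNA, and the labels do not say whether replicates were separate cultures, so p-values measure the spread between these libraries.

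Values are CPM, reads of a gene per 1000000 reads counted, and the spacing of low values put the depth at 21100000 to 32700000 reads per library. MYCN stood at 70.0% of its siCTR mean in siMYCN and at 49.6% in siHAND2, and HAND2 at 113.9% and 54.2%. MYCN was thus low in both knockdown groups, and lower in siHAND2. All 8 neuroblastoma markers measured reached 1 CPM in every group, with summed levels of 1415 to 1546 CPM in siCTR, 1844 to 1912 in siMYCN and 1413 to 1557 in siHAND2. Of 7 markers of blood, endothelial and epithelial cells, 1 (EPCAM, 2.79 to 3.95 CPM) reached 1 CPM as a group mean, VWF measured 0.427 to 1.19 CPM, and PTPRC, PECAM1, CDH5, CD14 and KRT8 stayed at or below 0.132 CPM. By limma's test 6 of the 8 neuroblastoma markers rose in siMYCN, beside 24.5% of all genes tested. In siHAND2, where the sums were near those of siCTR, 4 fell and 2 rose (log2 changes from -1.01 to 0.95), beside 11.8% and 18.1%. These counts are from CPM as deposited, without rescaling. The part of these marker changes in the results below was not tested. In bulk RNA, fewer cells of a type and less RNA per cell cannot be told apart.

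Against siCTR, 3 of the 9 genes fell in siMYCN (SLC7A5, GLS2 and ASNS) and none rose by limma's test, while 1 (DDIT3) was higher at an unadjusted p under 0.05. In siHAND2, 4 fell (SLC1A5, GLS2, TRIB3 and SLC7A5) and 2 rose (CHAC1 and ASNS). ATF4 and GLUL were not called in any comparison. Calls rest on limma's moderated test of log2(CPM + 1), with Benjamini-Hochberg adjustment across the 14495 genes that passed the filter on low values and a threshold of 0.05. By the same rule 35.9% of all genes were called in siMYCN (24.5% higher, 11.4% lower) and 29.9% in siHAND2 (18.1% higher, 11.8% lower), so many genes moved in both groups and 3 of 9 in siMYCN is near the background. Groups did not overlap for 5 of the 9 genes in siMYCN and 6 in siHAND2, beside 49.5% and 42.4% of all genes. In siHAND2 the count of 6 called fell to 3 without siCTR replicate 2. Between siHAND2 and siMYCN, 6 of the 9 were called, 3 higher in siHAND2 (ASNS, CHAC1 and SLC7A5) and 3 lower (SLC1A5, TRIB3 and DDIT3), where 26.9% of all genes were called (11.4% higher, 15.5% lower), and groups did not overlap for 6 of the 9, beside 38.7%. Of the called genes, 68.3% were higher in siMYCN against siCTR with CPM as deposited, but 51.7% once rescaled by median ratio and 49.3% with quantile normalization. In siHAND2 those shares were 60.6%, 48.3% and 47.8%.

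**Figure D1:**
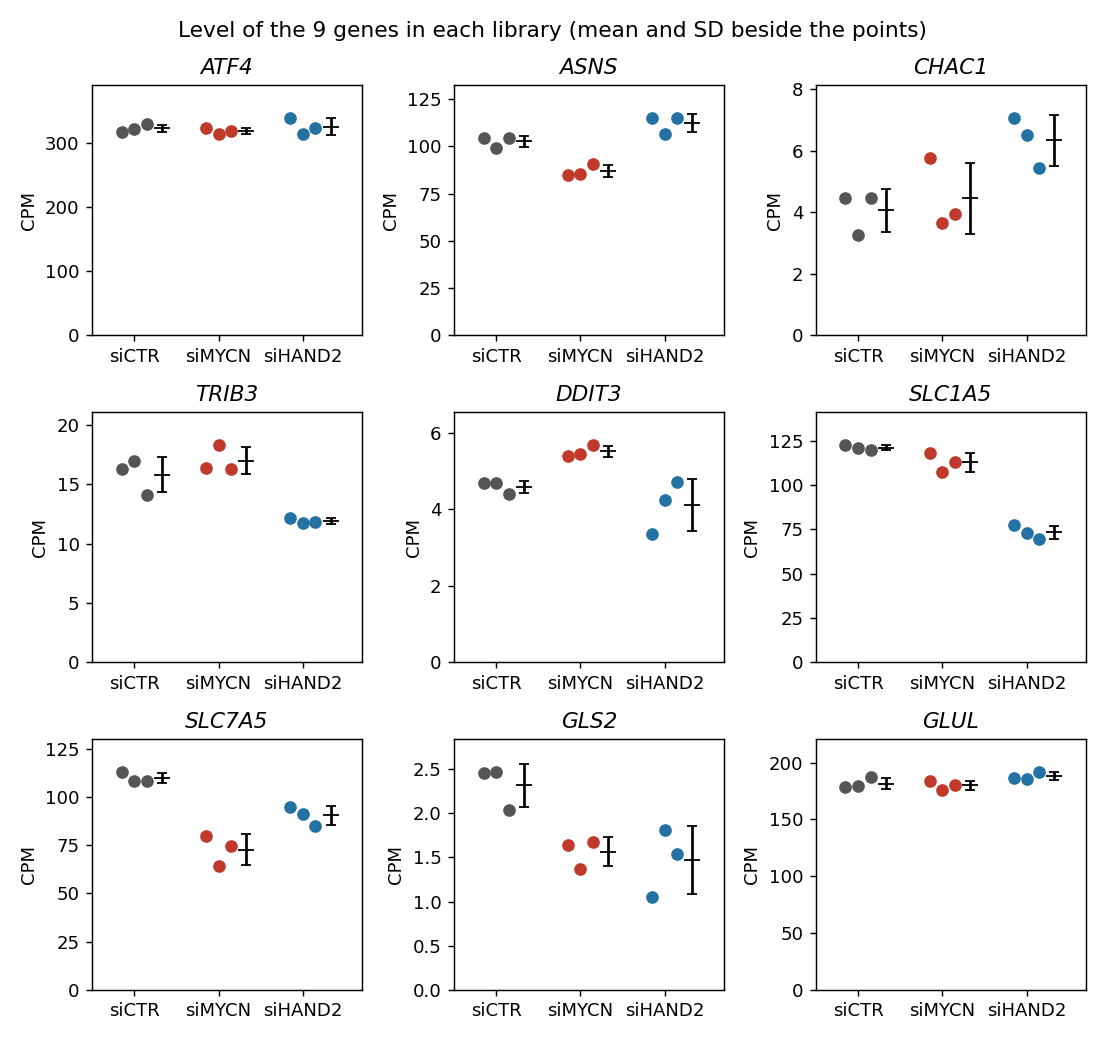
Level of each of the 9 genes in CPM (vertical axes, from 0) in every library of siCTR, siMYCN and siHAND2, with the group mean and SD over 3 libraries beside the points. ATF4 and GLUL stay level across the groups, SLC1A5 drops in siHAND2, and SLC7A5 is lowest in siMYCN.

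The promoters of the 9 genes were searched for letters tied to the factors concerned, in the 250 bases before each RefSeq start (GRCh38.p14, 17 starts, all 9 genes matched). These were TGATGNAA, the core of the C/EBP-ATF element that ATF4 binds with a C/EBP partner, CACGTG, the E-box preferred by MYC proteins, and CATCTG, an E-box bound by HAND proteins, each read on both strands. No match overlapped another. Stretches of 4 genes are shown with the match in capitals, 5′ to 3′ on the gene's strand. ASNS and CHAC1 share the ATF4 element, and ATF4 itself and SLC7A5 share the MYC-type E-box.
ASNS, chr7:97872458-97872487, minus strand: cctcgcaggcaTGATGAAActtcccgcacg
CHAC1, chr15:40953251-40953280, plus strand, the element in reverse: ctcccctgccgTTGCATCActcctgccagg
ATF4, chr22:39520466-39520493, plus strand: gaggagacggtCACGTGgtcgcggcgga
SLC7A5, chr16:87869602-87869667, minus strand: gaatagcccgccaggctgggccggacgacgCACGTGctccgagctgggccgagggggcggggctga
TGATGNAA was found in 3 of the 9 genes (ASNS, CHAC1 and an internal start of SLC1A5), and in 3.89% of the 27305 genes with a promoter in the RefSeq table. CACGTG was found in 3 (ATF4, SLC7A5 and another internal start of SLC1A5), against 7.73% of genes, and CATCTG in 1 (SLC1A5), against 14.57%. TRIB3, DDIT3, GLS2 and GLUL held none of these letters in this window. A match is a description of the sequence, not a site of binding.

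ATF4 encodes the bZIP factor at the head of this response (chromosome 22, 39519695 to 39522685, plus strand, GRCh38 as are all positions here). For ATF4 the siCTR libraries held 319, 322 and 329.8 CPM, those of siMYCN held 324, 314 and 319, and those of siHAND2 held 340.3, 314 and 324. The 3 groups overlapped, and all 9 libraries lay between 314 and 340.3 CPM. The log2 fold change was -0.02 in siMYCN (limma 95% interval -0.10 to 0.07, adjusted p = 0.75) and 0.01 in siHAND2 (-0.07 to 0.10, adjusted p = 0.847). Its sign in siHAND2 turned to -0.02 under median-ratio rescaling and to -0.0023 under quantile normalization. These values concern the transcript, and the amount of ATF4 protein, which is set largely by translation, was not measured.

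ASNS, the enzyme that makes asparagine with the amide nitrogen of glutamine (chromosome 7, 97851677 to 97872542, minus strand), went in opposite directions in the knockdowns. For ASNS the siCTR libraries held 104, 99.1 and 104 CPM, those of siMYCN held 84.9, 85.6 and 90.6, and those of siHAND2 held 115, 107 and 115. Every siMYCN library lay below every siCTR library, and every siHAND2 library above. The change was -0.24 in siMYCN (standard error 0.046, adjusted p = 0.0009) and 0.13 in siHAND2 (adjusted p = 0.0451), and siHAND2 exceeded siMYCN by 0.36 (adjusted p = 1.62e-05). The fall in siMYCN and the difference between the knockdowns kept their calls under all 18 alternatives. The rise in siHAND2 was small and fragile: 12 of 18 alternatives ended its call, among them median-ratio rescaling (0.09) and quantile normalization (0.10). It was also lost without siCTR replicate 1 (0.14), 2 (0.10) or 3 (0.14), siMYCN replicate 1 (0.13) or 2 (0.13), or siHAND2 replicate 1 (0.11) or 3 (0.11).

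CHAC1, an enzyme that breaks down glutathione (chromosome 15, 40952962 to 40956512, plus strand), was a low transcript that rose in siHAND2. For CHAC1 the siCTR libraries held 4.46, 3.26 and 4.46 CPM, those of siMYCN held 5.76, 3.64 and 3.94, and those of siHAND2 held 7.07, 6.49 and 5.42. The siHAND2 libraries lay above all siCTR libraries, while siMYCN overlapped siCTR through its replicates 2 and 3 and siHAND2 through its replicate 1. The siHAND2 mean was 155.9% of that in siCTR, a log2 change of 0.54 (standard error 0.14, adjusted p = 0.00829) that was no longer called without siCTR replicate 2 (0.42, adjusted p = 0.0553). In siMYCN the value was 0.10 (-0.20 to 0.39, adjusted p = 0.634). The difference between the knockdowns, 0.44 (adjusted p = 0.0277), lost its call without siMYCN replicate 2 (0.34) or 3 (0.38) and without siHAND2 replicate 1 (0.37) or 2 (0.42). With 87 to 215 reads per library, the counting error of CHAC1 was 6.82% to 10.7% of its value.

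TRIB3, a pseudokinase induced by ATF4 and DDIT3 that restrains them in turn (chromosome 20, 362835 to 397559, plus strand), fell in siHAND2. For TRIB3 the siCTR libraries held 16.3, 17.0 and 14.1 CPM, those of siMYCN held 16.4, 18.3 and 16.3, and those of siHAND2 held 12.2, 11.7 and 11.9. The siHAND2 libraries lay close together and below all the others. The change was -0.38 against siCTR (standard error 0.076, adjusted p = 0.00137) and -0.48 against siMYCN (adjusted p = 0.000167), and both calls held under all 18 alternatives. In siMYCN it was 0.10 (-0.06 to 0.26, adjusted p = 0.326). In siHAND2 CHAC1 rose and TRIB3 fell, with the limit on the call of CHAC1 given above.

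DDIT3 encodes CHOP, a factor of prolonged ER stress (chromosome 12, 57516588 to 57521737, minus strand). For DDIT3 the siCTR libraries held 4.68, 4.68 and 4.40 CPM, those of siMYCN held 5.40, 5.45 and 5.69, and those of siHAND2 held 3.37, 4.25 and 4.71. The siMYCN libraries lay above all others, and siHAND2 was spread over a range that held the siCTR values. Against siCTR the values were 0.22 in siMYCN (adjusted p = 0.104) and -0.14 in siHAND2 (adjusted p = 0.333), neither past the threshold. The siHAND2 value was -0.03 without siHAND2 replicate 1 and -0.22 without its replicate 3. The knockdowns differed by -0.36 (adjusted p = 0.0148), a call lost without siMYCN replicate 3 (-0.34) or siHAND2 replicate 1 (-0.25) and with no filter on low values. It overlaps MARS1 on the other strand, at 130.7 to 154.9 CPM, and the strand setting of the counting is not given in the sources used here. MARS1 changed by 0.01 in siMYCN (limma adjusted p = 0.886) and by 0.16 in siHAND2 (adjusted p = 0.0154), and its part in the DDIT3 values was not tested.

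**Figure D2:**
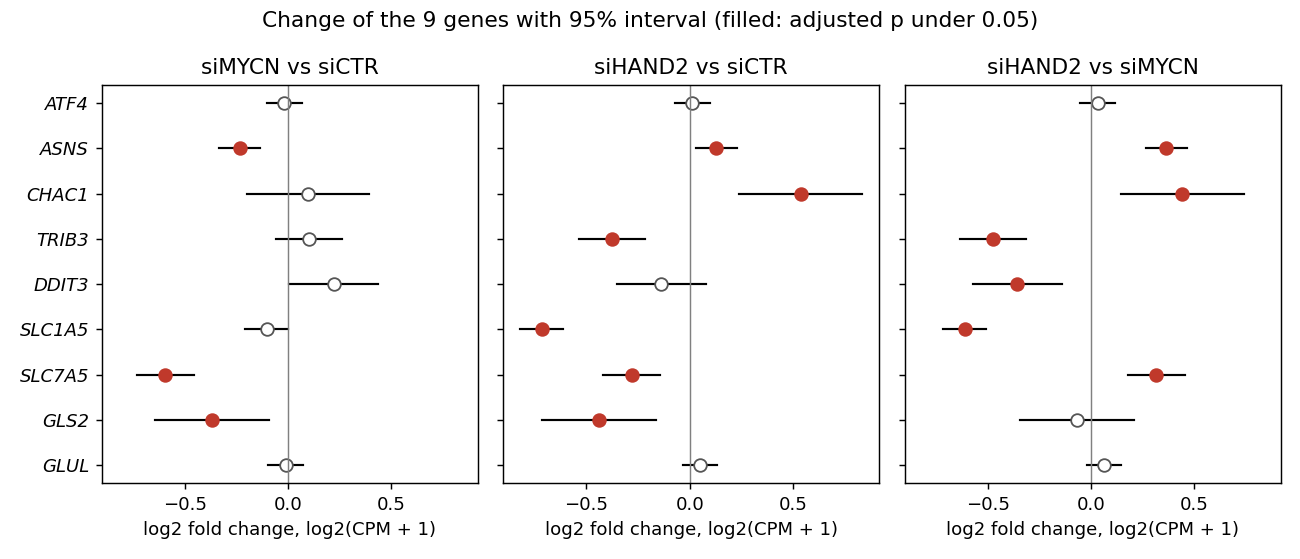
Log2 fold change of log2(CPM + 1) of the 9 genes (horizontal axes) in the 3 comparisons, with limma's 95% interval as a line and filled points for an adjusted p under 0.05. SLC1A5 shows the largest fall in siHAND2 (-0.72) and SLC7A5 the largest in siMYCN (-0.60), while the intervals of ATF4 and GLUL span 0 in all 3.

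SLC1A5, the sodium-coupled carrier ASCT2 that brings glutamine into the cell (chromosome 19, 46774883 to 46788594, minus strand), showed the largest change of the 9 genes. For SLC1A5 the siCTR libraries held 123, 121 and 119.8 CPM, those of siMYCN held 118, 107 and 113, and those of siHAND2 held 77.3, 72.9 and 69.7. The siHAND2 libraries were far below the other 6. The siHAND2 mean was 60.6% of that in siCTR, a log2 change of -0.72 (standard error 0.049, adjusted p = 1.26e-08), and siHAND2 lay below siMYCN by -0.61 (adjusted p = 5.88e-08). Both held under all 18 alternatives, which ranged from -0.76 to -0.68 and from -0.65 to -0.58. In siMYCN each library was below each siCTR library, but the value of -0.10 (-0.21 to -0.0013) missed the threshold (adjusted p = 0.107). It passed when rescaled by median ratio (-0.16, adjusted p = 0.0187) or by quantiles (-0.16, adjusted p = 0.0202).

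SLC7A5 encodes LAT1, which takes up leucine and other large amino acids in exchange for glutamine (chromosome 16, 87830023 to 87869507, minus strand). For SLC7A5 the siCTR libraries held 113, 109 and 109 CPM, those of siMYCN held 79.9, 64.1 and 74.5, and those of siHAND2 held 95.2, 91.5 and 85.1. The groups did not overlap, and their order was siCTR, siHAND2, siMYCN. The siMYCN mean was 66.1% of that in siCTR, a log2 change of -0.60 (standard error 0.065, adjusted p = 3.8e-06), and siHAND2 changed by -0.28 (adjusted p = 0.00396). The knockdowns differed by 0.32 (adjusted p = 0.00167). Of both knockdown groups, SLC7A5 was lower in siMYCN, the knockdown group with more MYCN transcript. The part of MYCN in the SLC7A5 values was not tested. All 3 calls held under all 18 alternatives. SLC7A5P1, a pseudogene copy, measured 0.138 to 0.855 CPM, and how reads fitting both were counted is not given in the sources used here.

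GLS2, a glutaminase gene and p53 target (chromosome 12, 56470944 to 56488414, minus strand), was close to the filter on low values. For GLS2 the siCTR libraries held 2.45, 2.47 and 2.03 CPM, those of siMYCN held 1.64, 1.37 and 1.68, and those of siHAND2 held 1.05, 1.81 and 1.54. All 6 knockdown libraries lay below all siCTR libraries, and siMYCN and siHAND2 overlapped. The change was -0.37 in siMYCN (standard error 0.13, adjusted p = 0.0359) and -0.44 in siHAND2 (adjusted p = 0.0183), with -0.07 between the knockdowns (-0.34 to 0.21, adjusted p = 0.75). The call in siMYCN was lost with no filter on low values and without siCTR replicate 1 (-0.34) or 2 (-0.34) or siMYCN replicate 1 (-0.39), 2 (-0.32) or 3 (-0.40). In siHAND2 it was lost without siCTR replicate 1 (-0.41) or 2 (-0.40) or siHAND2 replicate 1 (-0.31). These values rest on 32 to 80 reads per library, a counting error of 11.2% to 17.7% of the value. SPRYD4 overlaps on the other strand at 10.5 to 12.6 CPM, above GLS2 itself, and changed by -0.09 in siMYCN and 0.03 in siHAND2, neither past the threshold.

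GLUL, glutamine synthetase (chromosome 1, 182378098 to 182392206, minus strand), stayed level. For GLUL the siCTR libraries held 179, 179 and 187 CPM, those of siMYCN held 184, 176 and 180.4, and those of siHAND2 held 187, 185 and 192. The groups overlapped with siCTR in each case. The values were -0.01 in siMYCN (-0.10 to 0.07, adjusted p = 0.844) and 0.05 in siHAND2 (-0.03 to 0.13, adjusted p = 0.371). siHAND2 lay above siMYCN in each library by 0.06 (adjusted p = 0.271), which passed the threshold after quantile normalization alone (0.11, adjusted p = 0.0289).

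Other targets of ATF4 were taken from a list of 28 genes, of which 25 passed the filter on low values. In siMYCN 11 of the 25 fell and 2 rose, beside 11.4% and 24.5% of all genes tested, and the median log2 change was -0.13 against 0.06 over all genes. The 11 that fell were DDIT4, CTH, SHMT2, MTHFD2, STC2, EIF4EBP1, XPOT, PHGDH, PYCR1, PSAT1 and SLC3A2, among them PHGDH, PSAT1, SHMT2 and MTHFD2 of serine and one-carbon metabolism and PYCR1 of proline synthesis. In siHAND2 6 fell (JDP2, MTHFD2, PSAT1, PYCR1, SHMT2 and XPOT) and 1 rose (PPP1R15A, which helps remove the phosphate from eIF2), beside 11.8% and 18.1%, with a median of -0.02 against 0.04. Between the knockdowns 8 were higher and 3 lower in siHAND2, beside 11.4% and 15.5% of all genes. Over the 18 alternatives 5 to 11 were higher (5 without siMYCN replicate 2) and 1 to 4 lower (1 without siMYCN replicate 1 or 3 or siHAND2 replicate 3). Over the 18 alternatives 9 to 12 fell in siMYCN and 5 to 7 in siHAND2. With the replicate number as a block, 4 rose in siMYCN and 2 in siHAND2. The rise of PPP1R15A was lost with quantile normalization and without siCTR replicate 2 or siHAND2 replicate 1, where no gene of the list rose in siHAND2.

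DDIT4, an inhibitor of the growth kinase mTORC1, went from 34.8 ± 0.948 to 21.9 ± 0.647 CPM in siMYCN (SD, n = 3 libraries), a log2 change of -0.65 (adjusted p = 3.73e-07). In siHAND2 it stood at 94.8% of siCTR (-0.08, adjusted p = 0.334), so the knockdowns differed by 0.57 (adjusted p = 7.91e-07). SHMT2, which makes glycine and one-carbon units in mitochondria, fell from 215 ± 2.66 to 159 ± 7.74 CPM in siMYCN (-0.44, adjusted p = 1.87e-06) and to 179 ± 7.30 in siHAND2 (-0.27, adjusted p = 0.00028). PSAT1, a transaminase of serine synthesis that consumes glutamate, fell by 0.23 on the log2 scale in each group, from 94.8 ± 1.31 to 80.7 ± 0.843 and 80.5 ± 2.87 CPM. SLC3A2, the partner chain of SLC7A5 at the membrane, fell in siMYCN (-0.16, adjusted p = 0.0213), by much less than SLC7A5. That call was lost without siCTR replicate 2 (-0.16) or 3 (-0.15) or siMYCN replicate 2 (-0.14) or 3 (-0.13), and with no intensity trend. In siHAND2 SLC3A2 stood at -0.09 (adjusted p = 0.192).

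ATF5, a bZIP factor also controlled through translation, rose in siMYCN from 5.32 ± 0.655 to 8.72 ± 0.408 CPM (0.63, adjusted p = 0.000393). In siHAND2 it was at 6.64 ± 1.24 CPM (0.27, adjusted p = 0.0829; 0.0436 with replicate number as a block), and without siHAND2 replicate 3 it passed at 0.39. JDP2, a repressor of the AP-1 and ATF family, fell in siHAND2 (-0.31, adjusted p = 0.0469), a call that 8 of 18 alternatives ended, among them the fits without any 1 of the siCTR libraries (-0.36 to -0.27) and without siHAND2 replicate 2 (-0.36) or 3 (-0.22). The stress genes ATF3 (0.03 and 0.08 in siMYCN and siHAND2), SESN2 (-0.13 and 0.13) and SLC7A11 (-0.13 and 0.10) did not pass the threshold in either group. The value of ATF3 in siMYCN changed sign after both other scalings.

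**Figure D3:**
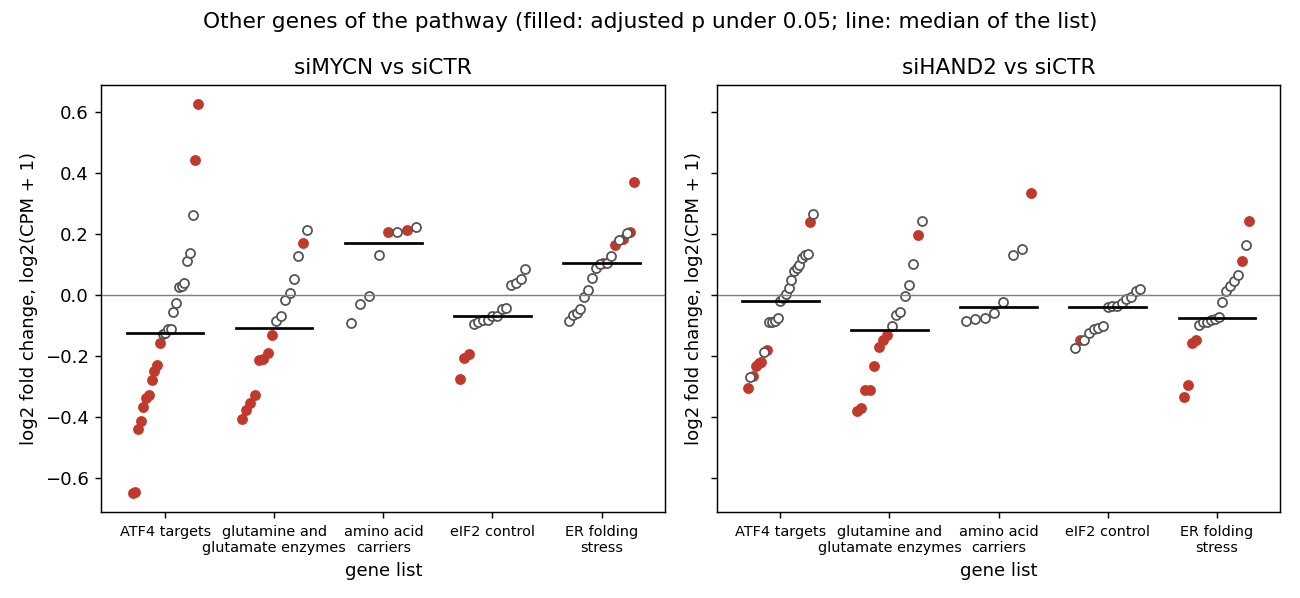
Log2 fold change of log2(CPM + 1) (vertical axis) of each tested gene in 5 lists (horizontal axis), for siMYCN and siHAND2 against the shared siCTR libraries, with filled points for an adjusted p under 0.05 and a line at each list's median. Among ATF4 targets 11 of 25 fell in siMYCN and 6 in siHAND2, and among glutamine and glutamate enzymes 8 of 16 fell in each.

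Enzymes that use or make glutamine and glutamate were listed apart from the 9 genes, and 16 of 18 passed the filter. In siMYCN 8 fell and 1 rose, beside 11.4% and 24.5% of all genes, with a median of -0.11 against 0.06 over all genes. The rise was lost under both other scalings. In siHAND2 8 fell and 1 rose, beside 11.8% and 18.1%, with a median of -0.12 against 0.04. Both comparisons share their siCTR libraries, so the values are given side by side. Between the knockdowns 2 of the 16 were called, 1 in each direction. GLUD1, which turns glutamate into alpha-ketoglutarate, changed by -0.21 (adjusted p = 0.000453) and -0.17 (adjusted p = 0.00301). PFAS, which spends glutamine in purine synthesis, changed by -0.41 (adjusted p = 0.000118) and -0.37 (adjusted p = 0.000316). CAD, which spends it in pyrimidine synthesis, changed by -0.38 (adjusted p = 4.66e-05) and -0.31 (adjusted p = 0.000312). The number that fell was 7 to 9 over the 18 alternatives in siMYCN and 6 to 8 in siHAND2.

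Among other carriers of neutral amino acids and glutamate, 8 of 12 passed the filter. By limma's test 2 rose in siMYCN (SLC38A2 and SLC1A4) and 1 in siHAND2 (SLC38A2), and none fell in either, also at an unadjusted p under 0.05. Beside the 24.5% and 18.1% of all genes that rose, these counts are near or below the background. SLC38A2, the carrier SNAT2 that cells raise when amino acids are short, went from 326 CPM in siCTR to 369, 374 and 389.9 CPM in the siMYCN libraries (0.21, adjusted p = 0.000711) and to 416, 402 and 415 CPM in those of siHAND2 (0.34, adjusted p = 1.05e-05). All 6 knockdown libraries lay above all siCTR libraries. SLC1A4, the closest relative of SLC1A5, rose in siMYCN from 59.5 ± 3.09 to 68.8 ± 2.85 CPM (0.21, adjusted p = 0.00492). It stood at 56.4 ± 1.68 CPM in siHAND2 (-0.08, adjusted p = 0.283), and the knockdowns differed by -0.28 (adjusted p = 0.000519). In siHAND2, then, SLC1A5 and SLC7A5 fell and SLC38A2 rose.

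The steps before and beside ATF4 were read from genes of eIF2 control and of protein folding in the ER. Of 15 genes of eIF2 control, 3 fell in siMYCN (EIF2S3, EIF2S2 and EIF2B3), beside 11.4% of all genes. In siHAND2 1 fell (EIF2AK1), beside 11.8%. By limma's test none rose in either, also at an unadjusted p under 0.05. At that unadjusted threshold 3 were lower in siMYCN and 7 in siHAND2, and the share over all genes was not taken. The median log2 changes were -0.07 and -0.04, against 0.06 and 0.04 over all genes. The counts of called genes were not stable. In siHAND2, 4 fell with replicate number as a block, 3 without siHAND2 replicate 3 and 2 without siCTR replicate 3. In siMYCN, 2 fell without siCTR replicate 2 or siMYCN replicate 2 or 3. Under other scalings 7 fell in each group with values rescaled by median ratio, and 8 and 6 with quantile normalization. EIF2S3, a subunit of eIF2, went from 245 ± 3.73 to 202 ± 2.57 CPM in siMYCN (-0.28, adjusted p = 0.000181) and stood at 227 ± 14.9 CPM in siHAND2 (-0.11, adjusted p = 0.0704; 0.0414 with replicate number as a block). It passed without siHAND2 replicate 3 (-0.17), and also with median-ratio rescaling (-0.15, adjusted p = 0.0156) and quantile normalization (-0.14, adjusted p = 0.0233). EIF2B3, a subunit of the exchange factor that phosphorylated eIF2 blocks, fell in siMYCN (-0.21, adjusted p = 0.0263). The call was lost without siCTR replicate 2 (-0.13) or siMYCN replicate 2 (-0.18) or 3 (-0.22), and with no intensity trend. In siHAND2 EIF2B3 stood at -0.17 (adjusted p = 0.0647; 0.0466 with replicate number as a block) and passed without siCTR replicate 3 (-0.24). It also passed with median-ratio rescaling (-0.21, adjusted p = 0.0314) and quantile normalization (-0.20, adjusted p = 0.0438). EIF2AK1, the eIF2 kinase HRI, fell in siHAND2 from 118 ± 1.96 to 107 ± 2.26 CPM (-0.15, adjusted p = 0.00932). In siMYCN each library was below each siCTR library, but the value of -0.08 missed the threshold (adjusted p = 0.115). There it passed when rescaled by median ratio (-0.14, adjusted p = 0.0099) or by quantiles (-0.14, adjusted p = 0.0097).

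Of 18 genes of ER folding, 5 rose in siMYCN (CRELD2, HSPA5, HYOU1, CALR and PDIA4) with a median of 0.10 against 0.06 over all genes, a count near the background of 24.5% higher, and by limma's test none fell, also at an unadjusted p under 0.05. After rescaling 3 rose and 1 fell (median-ratio) or 3 rose and 2 fell (quantile), and 2 rose without siCTR replicate 3, 3 without siCTR replicate 1 or 2, and 9 without siHAND2 replicate 3. With replicate number as a block 7 rose. In siHAND2 4 fell (PDIA4, SDF2L1, PDIA6 and HERPUD1) and 2 rose (CALR and SEL1L), beside 11.8% and 18.1% of all genes, with 2 lower without siCTR replicate 1 or siHAND2 replicate 2. Between the knockdowns 9 of the 18 were lower and 1 higher in siHAND2, beside 15.5% and 11.4% of all genes. The median of that comparison was -0.15 against -0.006 over all genes. Over the 18 alternatives 5 to 9 were lower and 1 was higher. CRELD2, a secreted ER stress protein, rose in siMYCN from 13.4 ± 0.561 to 17.6 ± 1.24 CPM (0.37, adjusted p = 0.000947). HSPA5, the chaperone BiP, rose in siMYCN (0.21, adjusted p = 0.00817), a call lost without siCTR replicate 3 (0.16) and with quantile normalization (0.14), and stood at 0.03 in siHAND2 (adjusted p = 0.731), a sign that median-ratio rescaling turned. PDIA4, a disulfide isomerase, fell in siHAND2 from 214 to 174 CPM (-0.29, adjusted p = 1.71e-05). Its small rise in siMYCN (0.10, adjusted p = 0.0406) was lost in 9 of 18 alternatives, among them both other scalings (0.05) and the fits without siCTR replicate 1 (0.11), 2 (0.09) or 3 (0.11) or siMYCN replicate 1 (0.09) or 3 (0.10). SDF2L1, a cochaperone of BiP, fell in siHAND2 (-0.34, adjusted p = 0.00548) and stood at -0.06 in siMYCN (adjusted p = 0.605).

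The genes whose levels ran closest to 4 of the 9 over the 9 libraries were sought among the 11201 genes whose mean reached 5 CPM, by Pearson's r of log2(CPM + 1), as a description. The libraries share their groups and their scaling to CPM, so r follows the differences between groups where a gene has them. For ASNS these were PTPN13 (r = 0.978) and SESN1 (r = 0.975), and for SLC7A5 LRP4 (r = 0.981) and PA2G4 (r = 0.979). For GLS2 they were RAPGEF5 (r = 0.969) and PDSS1 (r = 0.943). ATF4, whose groups overlapped, ran closest to ATG16L1 (r = 0.932) and NECAP2 (r = 0.904). Those values for ATF4 rest on the spread of 9 libraries with 11201 genes searched. Whether unrelated genes reach such values was not tested.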

How the data were processed

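The authors deposited CPM values (reads per 1000000, with 0.0001 added) for 25084 genes in 9 libraries. All 9 value columns were matched to samples. STAR 2.5.1, Partek and hg19/GRCh37 are listed per the submitters' processing notes, but the coordinates in the table are of GRCh38: 97.61% of 18215 shared genes had an edge within 1000 bp of the RefSeq GRCh38.p14 gene, against 4.57% for GRCh37. How reads were counted, and whether by strand, is not given in the sources used here. Low values gave the depth (21100000 to 32700000 reads), but 79.6% to 81.0% of them came out as whole reads within 0.02 of a read, under the 95% needed for a count model.

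A gene was kept where 3 or more libraries reached 1 CPM (14495 tested, 10589 left out). Values were tested as log2(CPM + 1) with limma 3.58.1 in R 4.3.3 (all 9 libraries in 1 fit, intensity trend, 3 contrasts, Benjamini-Hochberg adjustment over all genes, threshold 0.05). Fold changes are on the log2(CPM + 1) scale, which understates the change of low genes such as GLS2 and CHAC1. On simulated data for siMYCN against siCTR with 14272 genes, 98% of 100 genes changed by 1 (log2) and 71.7% of 99 changed by 0.5 were called. Of 14073 unchanged genes, 10 were called. The simulation set 1 fixed spread between libraries (dispersion 0.005) and changed 200 genes, far fewer than were called in the real data. Changes under 0.5 were not simulated, so these shares do not give the power for the results above.

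The 9 genes and all lists were chosen with earlier results of these data known. Genes named from the lists were 10 fixed by role and, for each list and contrast against siCTR, the 2 with the largest change among those called with a mean of at least 5 CPM. Others are named only as members of a count. Replicate numbers come from the labels. The deviations of same-numbered libraries from their group means correlated at 0.102 to 0.215 between siCTR and siMYCN. Between siCTR and siHAND2 they correlated at 0.121 to 0.266. These values are low, and siCTR replicate 2 and siHAND2 replicate 1, of unlike number, reached 0.179. Pairing by number is therefore not settled, and the main fit did not use the numbers. Alternatives were 2 other pseudocounts, 2 filters, 2 rescalings, the 2 groups alone, no intensity trend, the replicate block and leaving out each library. Some results are not reported here.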

Additional observations from a re-analysis of the deposited data

How the results depend on the processing

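Of the 27 results for the 9 genes, 15 were called, of which 9 kept their call under all 18 alternatives and 6 lost it under at least 1. For other named genes, 12 of 45 called results lost their call somewhere. Leaving out 1 library at a time gave 2 to 3 called genes of the 9 in siMYCN, 3 to 6 in siHAND2 (3 without siCTR replicate 2) and 4 to 6 between the knockdowns. Over all genes it gave 4017 to 5845, 3079 to 4341 and 2923 to 3992. With the replicate block 5895, 5089 and 4689 genes were called, against 5209, 4339 and 3892 without, and the counts for the 9 genes stayed at 3, 6 and 6. Between siMYCN and siHAND2 the correlation of same-numbered libraries ran from -0.129 to 0.434, which does not settle whether these are paired. Signs that turned were those of values not called. In siMYCN they were CHAC1 (-0.0239 without siCTR replicate 2, -0.0697 without siMYCN replicate 1; -0.0697 to 0.201 over the fits that leave out 1 library), GLUL (0.00972 without siCTR replicate 3, 0.00466 without siMYCN replicate 2; -0.0277 to 0.00972) and ATF3 (-0.0179 median-ratio, -0.0485 quantile, -0.0433 without siMYCN replicate 3; -0.0433 to 0.127). In siHAND2 they were ATF4 (-0.0245 median-ratio, -0.00228 quantile, -0.0183 without siHAND2 replicate 1; -0.0183 to 0.0388) and HSPA5 (-0.00734 median-ratio, -0.0163 without siCTR replicate 3, -0.0150 without siHAND2 replicate 1; -0.0163 to 0.0917). Between the knockdowns it was GLS2 (0.0612 without siHAND2 replicate 1; -0.167 to 0.0612). The cause was not tested. GLS2 had no value with a filter of 5 CPM. Its change was -0.54 in siMYCN and -0.65 in siHAND2 with a pseudocount of 0.1, and -0.16 and -0.18 with 5. Depth limits GLS2, CHAC1 and DDIT3 most.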
